A study of Mus musculus with 16 samples.

Results

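Serpinb9 and Serpinb6b encode intracellular inhibitors of granzymes, and they are 2 of the 9223 genes in the deposited table. They were picked by name, with their levels in these tissues already known, so the levels by tissue and their relation to Gzmb and Gzma are a description and carry no test. The cells were Pmel CD8 T cells, which carry a transgenic receptor for the melanocyte antigen gp100 and are marked by Thy1.1. They came from C57BL/6 mice aged 16 weeks with melanoma-associated vitiligo, in which immune cells destroy the pigment cells of the skin, and were taken 45 days after tumor surgery. The 4 groups were cells of liver, lung, skin and the draining lymph node, and all of them share this transgenic receptor, strain, disease and time. Single-cell RNA sequencing gave 556 liver cells, 2322 lung cells, 1224 skin cells and 1625 lymph node cells. Each tissue is represented by a single library, whose 4 GEO samples differ only in a lane-like ending. How many mice stand behind a library was not given in the sources used here. Liver was digested with collagenase for 40 minutes, skin with collagenase for 45 minutes and lung with Liberase for 30 minutes. The lymph node was dissociated mechanically, so tissue and dissociation cannot be told apart.

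Cytotoxic T cells store granzymes, serine proteases, in granules together with perforin, which forms pores in the membrane of a target cell. Granzyme B cleaves after aspartate and activates caspases, whereas granzyme A cleaves after basic residues. Some granzyme can leak into the killer cell's own cytosol, where inhibitors of the ovalbumin-type serpin clade are found. A serpin presents a reactive loop as bait, is cleaved by the protease and traps it in a covalent complex, so that 1 inhibitor is spent per protease. Mouse Serpinb9, also called SPI6, inhibits granzyme B and protects cytotoxic T cells from their own granzyme B. Mouse Serpinb6b inhibits granzyme A.

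Both genes lie on the plus strand of mouse chromosome 13 (GRCm38, GENCODE M21), Serpinb6b at chr13:32965209-32979067 and Serpinb9 at chr13:33003250-33017957. They are neighbors in a cluster of 15 protein-coding Serpinb1, Serpinb6 and Serpinb9 genes, of which 4 are in the table. The 24182 bases between them hold 1 annotated gene, the lincRNA Gm47662. No annotated gene overlaps either of them. Near-identical copies can share reads: 0.378% of the 50-base windows of Serpinb9 transcripts also occur in another gene (Serpinb9b), as do 2.92% of those of Serpinb6b (Serpinb6a, Serpinb6c and the annotated Gm8436). How the authors' counting treated such reads was not given in the sources used here.

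Promoter sequences are shown because both neighbors were high in the same tissue. They are the bases just before the RefSeq start sites on GRCm38.p6, plus strand, 5′ to 3′. That of Serpinb9 covers chr13:33004291-33004540, and its RefSeq start lies inside the longer GENCODE gene. That of Serpinb6b covers chr13:32965011-32965208, and the last 52 bases before its RefSeq start were left out because GENCODE places an exon there. Capitals mark the only match to the 6 motifs searched.
Serpinb9: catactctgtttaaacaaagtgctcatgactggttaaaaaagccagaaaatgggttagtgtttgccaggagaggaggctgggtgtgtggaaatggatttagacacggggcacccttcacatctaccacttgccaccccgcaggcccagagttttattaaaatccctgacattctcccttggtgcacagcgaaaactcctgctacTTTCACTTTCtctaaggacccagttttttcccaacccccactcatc
Serpinb6b: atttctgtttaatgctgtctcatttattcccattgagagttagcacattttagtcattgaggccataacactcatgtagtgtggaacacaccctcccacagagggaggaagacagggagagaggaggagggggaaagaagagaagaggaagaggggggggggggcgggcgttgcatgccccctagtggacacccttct
The match is an interferon regulatory factor motif, TTTC followed by 2 bases of any kind and TTTC again, 46 to 37 bases before the Serpinb9 start. It was found on either strand in 2.98% of 32851 promoters in the 250 bases before the start. The other motifs searched on both strands, with the share of promoters that hold them, were AP-1 TGANTCA (6.75%), RUNX TGTGGT (14.0%), T-box GGTGTGA (3.33%), NF-kB GGGA, 4 bases of any kind and CC (17.6%) and the hypoxia response ACGTG (16.6%). These letters were not found in either window, which says nothing about the binding of those factors.

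Serpinb9 was highest in liver cells, at several times its level in any other tissue. Levels are CPM, a gene's counts summed over the cells of a tissue and scaled to 1000000 counts in that tissue, with exact 95% intervals for the counting error alone. Serpinb9 had 218 counts and 113 CPM in liver (98.5 to 129), 110 counts and 13.6 CPM in lung (11.2 to 16.4), 97 counts and 29.5 CPM in skin (23.9 to 35.9), and 25 counts and 5.52 CPM in lymph node (3.57 to 8.14). The order was liver, skin, lung, lymph node, and none of the 4 intervals overlapped. Most positive cells held 1 count, and 44 liver cells, 8 lung cells, 18 skin cells and 1 lymph node cell held at least 2. The highest count in a single cell was 6 in liver, 3 in lung, 9 in skin and 2 in lymph node, so no single cell made up the liver level.

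Serpinb6b was also highest in liver, but lung and not skin came next. It had 263 counts and 136 CPM in liver (120.4 to 154), 328 counts and 40.6 CPM in lung (36.4 to 45.3), 78 counts and 23.7 CPM in skin (18.7 to 29.6), and 51 counts and 11.3 CPM in lymph node (8.38 to 14.8). Again no intervals overlapped between tissues. At least 2 counts were found in 57 liver cells, 61 lung cells, 11 skin cells and 4 lymph node cells, and the highest count in a cell was 8 in liver, 4 in lung, 6 in skin and 2 in lymph node.

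**Figure D1:**
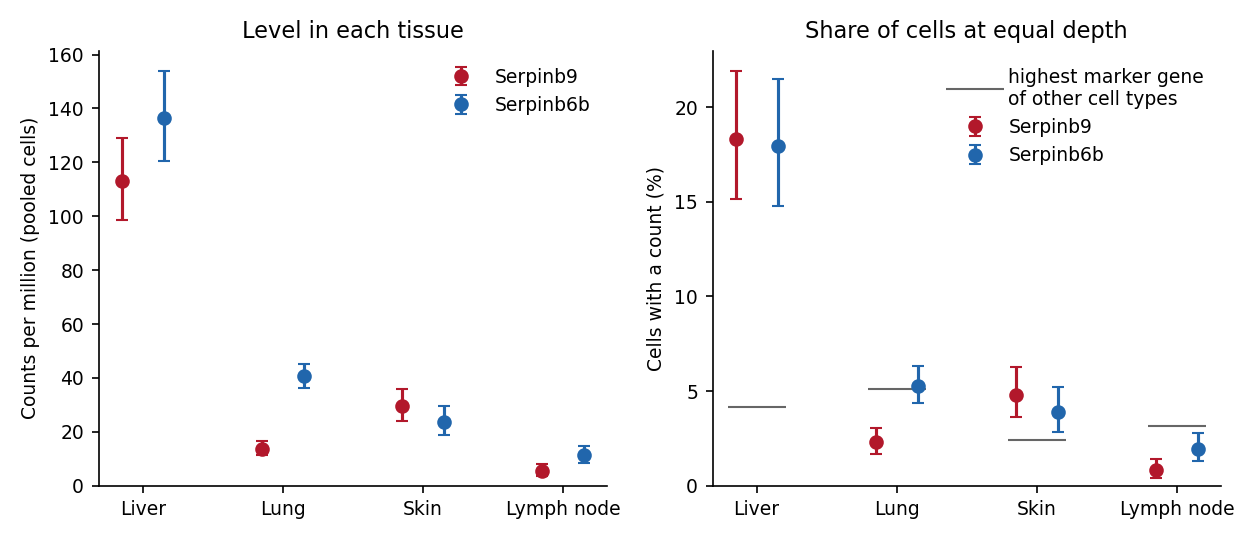
Pooled level in CPM (left axis) and share of cells with a count after every cell was thinned to 1886 counts (right axis, %) for Serpinb9 and Serpinb6b in liver, lung, skin and lymph node. Points are single libraries, bars exact 95% intervals for counting error, and gray lines the highest share among marker genes of other cell types; both genes stand at about 18% of liver cells and under 6% of cells elsewhere.

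In shares of cells at equal depth, each cell thinned to 1886 counts, the same orders were seen. Serpinb9 was detected in 97 of 529 liver cells (18.3%, exact 95% interval 15.1 to 21.9), 2.29% of lung cells (1.69 to 3.04), 4.80% in skin (3.61 to 6.25) and 0.803% in lymph node (0.416 to 1.40). Without thinning the Serpinb9 shares were 26.8%, 4.31%, 5.31% and 1.48% in these tissues. Serpinb6b was detected in 95 of 529 liver cells (18.0%, 14.8 to 21.5), 5.27% of lung cells (4.34 to 6.33), 3.88% in skin (2.81 to 5.21) and 1.94% in lymph node (1.30 to 2.78). Without thinning the Serpinb6b shares were 27.3%, 10.7%, 4.66% and 2.89%. For Serpinb6b the intervals of lung and skin overlapped in share, although not in CPM. Thinning left out 27 liver, 273 lung, 141 skin and 131 lymph node cells that were shallower than 1886 counts.

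Marker genes of other cell types give a rough measure of what free RNA or other cells can add, although T cells can hold some of them, among them Pecam1 and Lst1. Of 12 marker genes of myeloid cells, B cells, airway epithelium, keratinocytes and endothelium in the table, the highest share at equal depth was 4.16% in liver (Cd68), 5.12% in lung (Lyz2), 2.40% in skin (Lst1) and 3.15% in lymph node (Pecam1). No counts were found for 5 of them in liver, 1 in lung, 4 in skin and 2 in lymph node, and their summed level was 65.9, 107, 49.2 and 84.3 CPM. In share of cells, both serpins were above the highest marker in liver and skin. Serpinb9 in lung and both serpins in lymph node were below it, and Serpinb6b in lung was at it, so these shares by themselves are not shown to be expression. The hepatocyte markers Alb, Apoa1 and Ttr and the dendritic cell markers Xcr1, Clec9a, Siglech and Batf3 are not in the table. RNA from hepatocytes and dendritic cells was thus not measured. The natural killer cell markers Ncr1 and Klrb1c are missing too, and genes of those cells were not among the 12. Of the 3 listed ones in the table, Tyrobp was detected at equal depth in 0.945% of liver, 1.12% of lung, 0.185% of skin and 0.469% of lymph node cells. Fcer1g was detected in 1.70%, 2.34%, 0.369% and 0.669%. Klrk1 was detected in most cells of each tissue (79.2%, 84.8%, 78.4% and 70.5%), so it cannot set natural killer cells apart here. The T cell genes Cd3e and Cd8a were detected at equal depth in 72.8% and 70.1% of liver cells, 69.7% and 72.1% of lung cells, 82.3% and 89.4% of skin cells, and 75.2% and 92.6% of lymph node cells.

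Set against the lymph node, both serpins were higher in each peripheral tissue. Serpinb9 was 20.5-fold higher in liver (13.5 to 32.4), 2.47-fold higher in lung (1.59 to 3.98) and 5.34-fold higher in skin (3.41 to 8.66). Serpinb6b was 12.1-fold higher in liver (8.95 to 16.7), 3.61-fold higher in lung (2.68 to 4.95) and 2.11-fold higher in skin (1.46 to 3.06). Among genes with at least 20 counts in the tissues compared, 3.92% were at least 2-fold higher in liver, 3.58% in lung and 5.59% in skin. Liver over lymph node, Serpinb9 ranked 13 and Serpinb6b 28 among 8895 genes. The lymph node shares lie within the range of the markers above, and in lung the markers reach the serpin shares too. RNA of other cells could add to either side of a ratio, so no bound can be read from these ratios. The column names of skin and lymph node cells carry a 2 that those of liver and lung cells do not, and its meaning was not given in the sources used here. Liver and lung compared with skin or lymph node cross that difference, and its part in these ratios was not tested.

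The comparison of liver with lung does not cross it, and there the serpins stood apart from the granzymes they inhibit. Serpinb9 was 8.30-fold higher in liver than in lung (6.57 to 10.5) and Serpinb6b 3.36-fold higher (2.84 to 3.96), ranks 3 and 46 of 8867 genes, of which 2.56% were at least 2-fold higher. Gzmb, the gene of granzyme B, had 1695 CPM in liver and 1133 CPM in lung, a ratio of 1.496 (1.44 to 1.56). Gzma, the gene of granzyme A, had 11049 CPM in liver and 14637 CPM in lung, a ratio of 0.755 (0.744 to 0.766). Above Serpinb9 in that ranking stood the chemokine gene Cxcl10 at 14.5 and the costimulatory receptor gene Tnfrsf9 at 14.4. Just below it came the inhibitory receptor gene Ctla4 at 8.05, Hilpda at 7.90, Pdcd1 at 7.19 and Nr4a1 at 7.09. Liver and lung also differed in enzyme and digestion time, whose part in these ratios was not tested. Skin lay between liver and lung for Serpinb9, 3.84-fold higher in liver than in skin (3.01 to 4.93) and 2.16-fold lower in lung than in skin (1.63 to 2.87). Serpinb6b was 5.76-fold higher in liver than in skin (4.46 to 7.51) and 1.72-fold higher in lung than in skin (1.34 to 2.22). Over these pairs 5.07% of genes were at least 2-fold higher in liver than in skin, and 15.7% were at least 2-fold lower and 6.37% higher in lung than in skin.

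**Figure D2:**
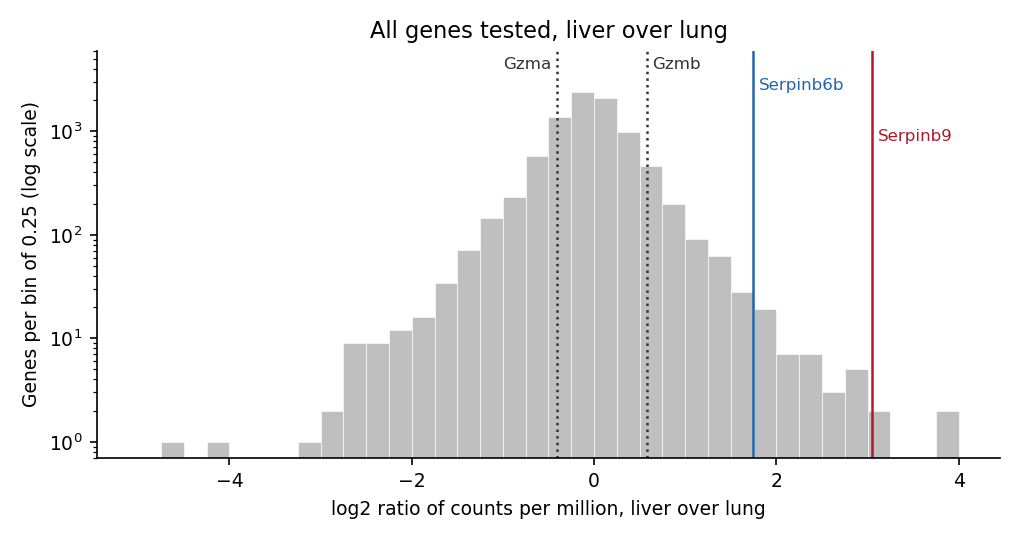
Number of genes (log axis) in bins of the log2 ratio of CPM, liver over lung, for 8867 genes with at least 20 counts in these tissues. Lines mark Serpinb9 at 3.05, Serpinb6b at 1.75, Gzmb at 0.58 and Gzma at -0.41, so both serpins lie farther right than Gzmb, and Gzma lies left of 0.

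The counts of a granzyme per count of its serpin do not depend on how tissues are scaled. As counts of different genes also depend on transcript length and capture, they are compared only between tissues. There were 14.99 Gzmb counts per Serpinb9 count in liver (13.1 to 17.3), 83.1 in lung (68.9 to 101), 29.2 in skin (23.8 to 36.1) and 160 in lymph node (108 to 248). Liver cells thus held the most Serpinb9 for their Gzmb, and lymph node cells the least. There were 81.0 Gzma counts per Serpinb6b count in liver (71.7 to 91.8), 360 in lung (323 to 403), 59.1 in skin (47.3 to 74.9) and 61.5 in lymph node (46.6 to 82.7). Here lung stood above the other tissues, whose neighboring intervals overlapped. Serpinb6b counts per Serpinb9 count were 1.21 in liver (1.004 to 1.45), 2.98 in lung (2.40 to 3.74), 0.804 in skin (0.589 to 1.09) and 2.04 in lymph node (1.24 to 3.44).

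Within the liver, cells with and without granzyme transcripts held the serpins at shares that counting error did not separate at 1886 counts per cell. Cells without a granzyme are those with no count of it at that depth, and some may hold transcripts that were missed. Unthinned, 61 liver cells had no Gzmb count, against 89 after thinning. Serpinb9 was detected in 19.3% of 440 cells with Gzmb (15.7 to 23.3) and 13.5% of 89 cells without (7.17 to 22.4). It was detected in 19.1% of 444 cells with Gzma (15.6 to 23.1) and 14.1% of 85 cells without (7.51 to 23.4). Serpinb6b was detected in 17.7% of cells with Gzmb (14.3 to 21.6) and 19.1% of cells without (11.5 to 28.8). That sign turned with another thinning seed, by 2.46 percentage points in favor of cells with Gzmb. The largest gap for Serpinb6b was by Gzma, with 19.4% of cells with Gzma (15.8 to 23.4) and 10.6% of cells without (4.96 to 19.2), whose intervals overlapped. With granzymes left out of the depth, the Serpinb9 difference by Gzmb was 11.3 percentage points, against 5.84 with them. Background came from 3401 genes detected in at least 5% of liver cells. Of these, 12.7% had a share at least 1.5 times as high in liver cells with Gzmb as in those without, and 14.6% by Gzma. The Serpinb6b ratio by Gzma passed 1.5, and the other 3 did not.

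Depth moved the liver comparison for Serpinb9 and Gzmb. In cells thinned to 2277 counts, the 25th percentile, Serpinb9 was detected in 22.3% of cells with Gzmb (18.4 to 26.6) and 6.78% of cells without (1.88 to 16.5). Without thinning the shares were 29.1% (25.1 to 33.3) and 8.20% (2.72 to 18.1), but unthinned cells with Gzmb were also deeper, with a median of 3158 counts against 2609. These intervals did not overlap at the greater depths, while at 1886 counts they did. For Serpinb6b by Gzma in liver the unthinned shares were 30.4% (26.3 to 34.8) and 9.64% (4.25 to 18.1), at median depths of 3240 and 2522 counts.

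In lung, the serpins were rarer, and each share was higher in cells with the granzyme at 1886 counts per cell, with intervals that overlapped for all 4 pairs of serpin and granzyme. Serpinb9 was detected in 2.46% of 1507 cells with Gzmb (1.73 to 3.37) and 1.85% of 542 cells without (0.888 to 3.37), and in 2.39% of 1882 cells with Gzma (1.75 to 3.19) and 2 of 167 cells without (1.198%, 0.145 to 4.26). Serpinb6b was detected in 5.84% of cells with Gzmb (4.71 to 7.15) and 3.69% of cells without (2.27 to 5.64). By Gzma it was detected in 5.53% of cells with it (4.54 to 6.66) and 4 cells without (2.40%, 0.656 to 6.02). Of 3454 genes detected in at least 5% of lung cells, 1.45% had a share at least 1.5 times as high in cells with Gzmb. By Gzma it was 7.3% of them. Serpinb6b was among both, at rank 32 by Gzmb and 46 by Gzma, and Serpinb9 was too rare to be ranked. Serpinb6b, at 5.27% of cells, lay just above the cut, where ratios rest on few cells. Genes found in nearly all cells cannot reach a ratio of 1.5, so these shares are a rough background. Among the 86 lung cells with neither granzyme no cell held either serpin, which allows a share of up to 4.20% (exact 95% bound). Without thinning, Serpinb6b was detected in 12.5% of lung cells with Gzmb (11.1 to 14.2) and 3.82% of those without (2.32 to 5.91), at median depths of 3231 and 2261 counts. By Gzma the sign in lung turned in cells thinned to 2277 counts, with Serpinb6b in 7.43% of cells with Gzma (6.21 to 8.81) and 8.43% of the 83 cells without (3.46 to 16.6), and Serpinb9 in 2.32% (1.64 to 3.16) and 2.41% (0.293 to 8.43). By Gzmb the sign held at 2277 counts, with Serpinb6b in 8.37% of cells with Gzmb (6.95 to 9.97) and 4.14% without (2.34 to 6.74). Serpinb9 was detected in 2.79% (1.98 to 3.81) and 0.552% (0.067 to 1.98). The intervals of these Gzmb pairs did not overlap, although for Serpinb9 the facing bounds both round to 1.98. Another seed was not run at that depth.

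By amount of granzyme, the highest shares in liver and lung were in cells with the most transcripts, except for Serpinb6b by Gzmb in liver. These bins were made at a single seed and depth, without the share over all genes beside them. Serpinb9 was detected in 13.5%, 17.4%, 18.5% and 24.5% of liver cells with 0, 1 to 2, 3 to 5 and 6 or more Gzmb counts at equal depth, with overlapping intervals from 7.17 at the lowest bound to 34.4 at the highest. In lung the same bins gave 1.85%, 1.97%, 2% and 6.90%, the last with an interval of 3.36 to 12.3. Serpinb6b by Gzma was detected in 10.6%, 13.7%, 19.1% and 27.0% of liver cells with 0, 1 to 9, 10 to 29 and 30 or more Gzma counts. In lung it was detected in 2.40%, 3.31%, 4.44% and 8.07% of the cells of these bins, and the last interval (6.15 to 10.4) did not overlap that of the bin with 1 to 9 (1.82 to 5.49). Serpinb9 by Gzma in lung was detected in 1.198%, 0.946%, 1.70% and 4.03% of cells. Serpinb6b by Gzmb in liver showed no order, at 19.1%, 13.04%, 22.8% and 18.1%. Across cells the rank correlations were weak. Spearman's rho lay between 0.04 and 0.13 for the 8 pairs of serpin and granzyme in liver (529 cells) and lung (2049 cells), cells that share a library and, at equal depth, a total.

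**Figure D3:**
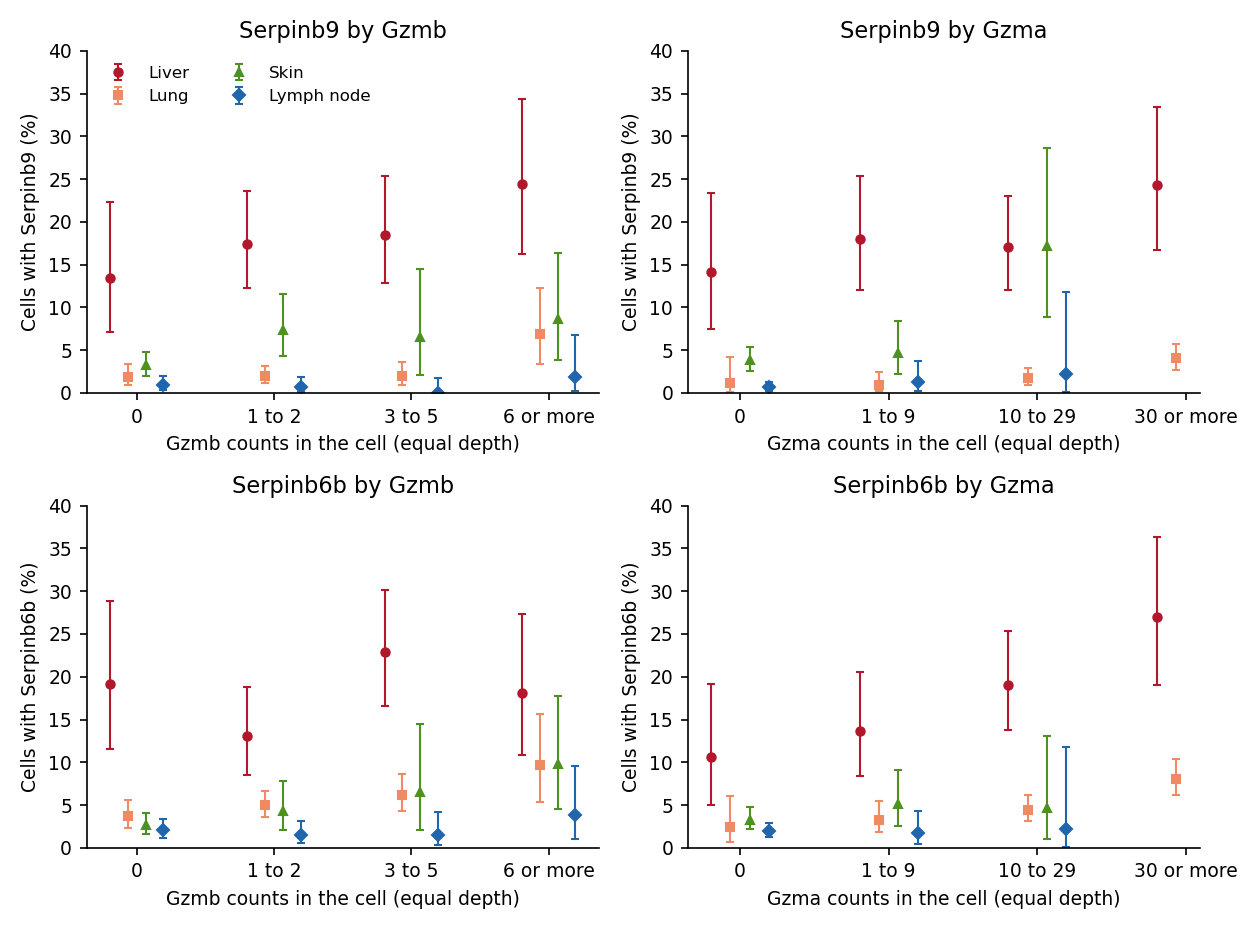
Share of cells with Serpinb9 (top) or Serpinb6b (bottom), in percent, by the counts of Gzmb (left) or Gzma (right) in the cell, all cells thinned to 1886 counts. Points are 1 library per tissue and bars exact 95% intervals for counting error; bins under 20 cells (skin and lymph node, 30 or more Gzma counts) are not drawn. Liver points lie between 10.6% and 27.0% and lung points between 0.946% and 9.66%.

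Skin cells with both granzymes held Serpinb9 at a higher share than skin cells with neither, beyond counting error, while the intervals for Serpinb6b overlapped. This skin comparison was made at a single seed and depth, without the share over all genes beside it. In liver and lung such differences moved with depth, and that of Serpinb6b by Gzmb in liver turned sign with another seed. Serpinb9 was detected in 19 of 173 skin cells with both Gzma and Gzmb (10.98%, 6.74 to 16.6), 2.50% of those with Gzma alone (0.519 to 7.13), 4.87% of those with Gzmb alone (2.45 to 8.54) and 3.37% of 564 cells with neither (2.04 to 5.21). Serpinb6b was detected in 6.94% of skin cells with both granzymes (3.64 to 11.8) and 2.48% of those with neither (1.36 to 4.13). The tissues also differed among cells with both granzymes. Among such cells, Serpinb9 was detected in 20.1% in liver (16.2 to 24.5), 2.45% in lung (1.72 to 3.40), 10.98% in skin and 1.03% in lymph node (0.125 to 3.67). Serpinb6b was detected in 19.3% (15.5 to 23.7), 5.89% (4.73 to 7.24), 6.94% and 2.06% (0.565 to 5.19) of them in the same tissues. In lymph node 51.5% of cells held Gzmb, and Serpinb9 was detected in 5 of those 769 cells (0.65%, 0.211 to 1.51) and 7 of the 725 without (0.966%, 0.389 to 1.98).

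Cells with Serpinb9 held Serpinb6b at a higher share than cells without it in liver, lung and skin, with intervals that overlapped in liver and skin and not in lung. In liver 26 cells held both at equal depth, 71 Serpinb9 alone, 69 Serpinb6b alone and 363 neither. Serpinb6b was detected in 26.8% of liver cells with Serpinb9 (18.3 to 36.8) and 16.0% of those without (12.6 to 19.8). In lung it was detected in 8 of 47 cells with Serpinb9 (17.0%, 7.65 to 30.8) and 4.995% of those without (4.08 to 6.04), and in skin in 9.62% (3.20 to 21.0) and 3.59% (2.54 to 4.91). In lymph node 0 of the 12 cells with Serpinb9 held Serpinb6b, which allows a share of up to 26.5% (exact 95% bound). At least 1 of the serpins was detected in 31.4% of liver cells, 7.17% of lung cells, 8.22% of skin cells and 2.74% of lymph node cells. Rank correlation between them across cells was weak, with a rho of 0.12 in liver and 0.08 in lung.

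Within tissues the serpins varied between groups of cells. Cells were clustered on other genes, without the serpins, granzymes and receptor segments, and units of 1 cluster and 1 tissue with at least 50 cells were compared. Cluster 4 held 359 of the 556 liver cells and 23 lung cells, and besides the serpins its leading genes were Ctla4, Metrnl, Cxcr4, Hilpda and Ddit4. Liver cells of cluster 4 had 150 CPM of Serpinb9 (128 to 174) and 171 CPM of Serpinb6b (148 to 197). They made up 64.6% of liver cells and gave 78.9% of liver Serpinb9 counts and 74.5% of liver Serpinb6b counts. Liver cells of cluster 3, led by Gzmm, Gzma and Tspan32, had 82.7 CPM of Serpinb9 (54.0 to 121) and 114 CPM of Serpinb6b (80.2 to 158). Liver cells of cluster 0, led by Fxyd4, Fcgrt and Nacc2, had the least, at 32.1 CPM (15.4 to 59.0) and 41.7 CPM (22.2 to 71.3). As cluster 4 was nearly all from 1 library, it may stand for that library and not for a type of cell.

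Clusters 0 and 3 held enough cells of both organs to set liver beside lung. Within cluster 0, Serpinb9 had 32.1 CPM in 106 liver cells and 7.80 CPM in 1294 lung cells, a ratio of 4.12 (1.78 to 8.73). Within cluster 3 it had 82.7 CPM in 66 liver cells and 18.3 CPM in 652 lung cells, a ratio of 4.51 (2.74 to 7.23). Serpinb9 was thus higher in liver than in lung within both clusters. Over all cells the ratio was 8.30, inside the interval of cluster 0 and above that of cluster 3, and these differences were not tested. For Serpinb6b the ratios were 1.78 in cluster 0 (0.912 to 3.22), whose interval held equality, and 1.84 in cluster 3 (1.26 to 2.63). Gzmb had ratios of 1.31 and 1.04, and Gzma 0.763 and 0.887, in clusters 0 and 3.

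In lung, cluster 3 had more of both serpins than cluster 0, with 18.3 CPM of Serpinb9 (14.1 to 23.5) against 7.80 (5.18 to 11.3), and 62.1 CPM of Serpinb6b (54.0 to 71.1) against 23.4 (18.7 to 28.95). Cluster 3 cells were also deeper, with a median of 4922.5 counts in lung against 2671.5 in cluster 0. Cycling lung cells (cluster 8) had 17.5 CPM of Serpinb9 (7.57 to 34.5) and 54.8 CPM of Serpinb6b (35.4 to 80.8). Lung cells of cluster 5, led by Bcl2 and the amino acid stress genes Trib3, Atf5 and Asns, had 13.8 CPM of Serpinb9 (5.95 to 27.1) and 6.89 CPM of Serpinb6b (1.88 to 17.6). In skin 1155 cells fell in cluster 2, with 31.6 CPM of Serpinb9 (25.6 to 38.6) and 25.6 CPM of Serpinb6b (20.2 to 32.0). In lymph node, cluster 6, led by Izumo1r, Tnfsf8 and Slamf6, had 31.8 CPM of Serpinb6b (17.4 to 53.3) against 8.999 (6.16 to 12.7) in cluster 1, while its Gzmb was 47.6 CPM against 883 CPM. Serpinb9 there rested on 4 counts. The interferon-stimulated lymph node cells of cluster 7, led by Ifit3 and Isg15, held 2 counts of Serpinb9 (4.88 CPM, 0.59 to 17.6), beside 18 counts (5.06 CPM) in the 1298 cells of cluster 1.

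**Figure D4:**
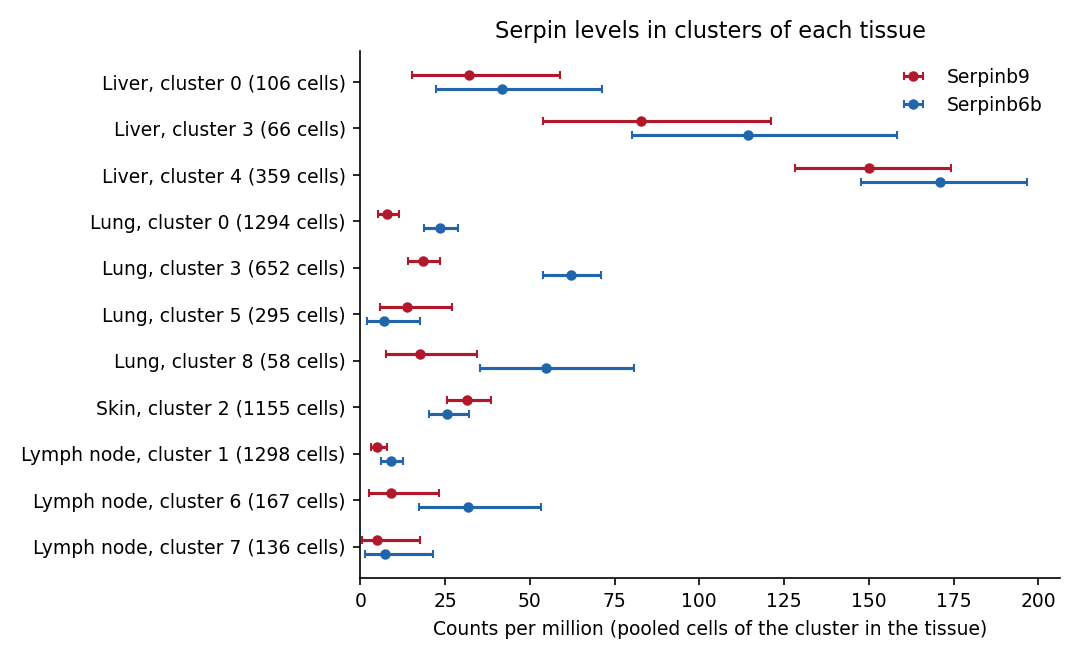
Level of Serpinb9 and Serpinb6b in CPM (horizontal axis) in each unit of 1 cluster and 1 tissue with at least 50 cells. Points are pooled cells of a single library and bars exact 95% intervals for counting error; liver cells of clusters 3 and 4 have the highest levels of both genes, and lymph node cells of clusters 1 and 7 are among the lowest.

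By the similarity of their levels, and leaving both serpins out of the ranking, Ddit4, Cytip and Hilpda were nearest to Serpinb9 over these 11 units, with Pearson's r of 0.92, 0.91 and 0.85 on log2(CPM + 10) among 4336 genes. The serpins had an r of 0.86 with each other, above that of Hilpda, and the other genes nearest to Serpinb6b were Rab35, Mtch1 and Kcnn4, at 0.88, 0.87 and 0.85. Gzmb ranked 445 for Serpinb9 (r 0.37), and Gzma ranked 186 for Serpinb6b (r 0.57). The units come from 4 libraries and are not independent. Over single lung cells Gzma was the nearest gene to both serpins among 1847 genes, with a rho of 0.10 for Serpinb9 and 0.09 for Serpinb6b. Over single liver cells Csf1 and Hilpda were nearest, with rho of 0.14 for Serpinb9 and 0.18 for Serpinb6b, while Gzmb ranked 117 for Serpinb9 and Gzma 7 for Serpinb6b among 1823 genes.

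The other serpins in the table varied in their order of tissues. Serpinb6a, a relative of Serpinb6b in the same gene cluster, had 142 CPM in liver, 166 CPM in lung, 106 CPM in skin and 95.3 CPM in lymph node, a liver over lung ratio of 0.855 (0.748 to 0.975). Serpina3g, an intracellular inhibitor of cathepsins, had 86.6 CPM in liver, 51.5 CPM in lung, 64.1 CPM in skin and 182 CPM in lymph node, where it was highest. Serpini1, the gene of neuroserpin, had the same order as Serpinb6b, although nearly equal in liver and lung, with 50.8 CPM in liver, 50.7 CPM in lung, 15.2 CPM in skin and 14.8 CPM in lymph node. Serpinb1a and Serpina3f stayed under 16 CPM in every tissue. Of 7 serpins with enough counts, 6 were higher in liver than in lung, 3 of them (Serpinb9, Serpinb6b and Serpina3g) with an interval that excluded equality, and 1 was lower. Serpinb9 and Serpinb6b were picked with their levels known, so these counts are no support for either. Of all 8867 genes, 3960 were higher and 4907 lower in liver. By that interval rule 8.14% of all genes were higher and 9.78% lower. The median log2 ratio of the 7 serpins, both picked members included, was 0.75 and that of all genes -0.04.

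The medians of the granzymes, granule genes and death pathway lay near that of all genes between liver and lung. The counts below stand beside 3960 genes higher and 4907 lower in liver of all 8867, with 8.14% and 9.78% by interval. Of 6 genes of granzymes and perforin, 2 were higher in liver, Gzmb and the granzyme C gene Gzmc (3.24, 1.82 to 5.71), and 4 were lower, 3 of them by interval, with a median log2 ratio of -0.15. Prf1, the perforin gene, had a ratio of 0.95 (0.601 to 1.45). Of 23 genes of granule cargo, processing and release, 11 were higher and 12 lower, 2 and 3 of them by interval, with a median of -0.01. The 2 higher were Srgn, the granule proteoglycan serglycin, at 1.33 (1.27 to 1.39), and Ctsc, the protease that activates granzymes, at 1.43 (1.19 to 1.71). Of 20 genes of granzyme targets and the death pathway, 8 were higher and 12 lower, 4 and 1 of them by interval, with a median of -0.04. Among them Mcl1, an inhibitor of mitochondrial apoptosis, was higher in liver at 1.82 (1.48 to 2.21), Casp8, an initiator caspase, at 1.48 (1.18 to 1.85), and Bcl2, another inhibitor of mitochondrial apoptosis, was 2.20-fold lower in liver (1.60 to 3.11). Of 15 effector and memory transcription factor genes, 13 were higher in liver, 8 by interval, and 2 were lower, with a median of 0.48. Tbx21, the gene of T-bet, stood at 2.34 (1.97 to 2.77) and Bhlhe40 at 1.93 (1.74 to 2.14), while Id2 stood at 0.702 (0.673 to 0.732). Liver over lymph node, 5 of 6 granzyme and perforin genes were higher by interval, led by Gzma at 16.0, while Gzmb stood at 1.92 and Serpinb9 at 20.5. By the same rule 5 of 7 serpins, both picked members among them, were higher and 2, Serpina3g and Serpina3f, lower. Of all genes, 10.9% were higher and 41.4% lower.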

How the data were processed

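The table that the authors deposited holds raw counts of 9223 genes in 5727 cells. Bowtie, RSEM and mm10 are named in the submitters' processing notes, without versions. Whether the counts are of molecular identifiers, and how cells and genes were filtered, was not given in the sources used here. Column names give the tissue but no lane, so each tissue was 1 library, without replicates, tests or p-values. Total counts were 1928185 in liver, 8072278 in lung, 3292210 in skin and 4532333 in lymph node, and median counts per cell 3095.5, 2943, 2517.5 and 2649. No cell was left out of pooled values, and 19 barcodes occurred in 2 tissues, on 1 liver, 15 lung, 11 skin and 11 lymph node cells, which were kept. CPM used the total over the table's genes. Intervals are exact Poisson, conditional binomial or Clopper-Pearson at 95% (SciPy 1.17.1) and cover counting error only. Shares used cells thinned to 1886 counts, the 10th percentile. Clusters (Scanpy 1.11.5, Leiden, resolution 0.6) were built from 2000 variable genes. A doublet caller run per tissue marked 1.50% of cells, but 0.431% in lung, where it may not have worked, and doublets were kept in the main values. The procedure was tested on simulated data. Named genes were the members, any gene of the lists and the nearest genes by correlation. Cxcl10, Tnfrsf9, Ctla4, Pdcd1, Nr4a1 and the leading genes of clusters were named after their values were seen. The members and lists were chosen with earlier results of these data known. Alternatives were other depths, seeds, scalings, count minimums, and values without doublets or cycling cells.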

Additional observations from a re-analysis of the deposited data

How the results depend on the processing

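The order of tissues in each log2 ratio kept its direction under every alternative run. Of the log2 ratios of the serpins between tissues, 71 of 72 alternative values moved by less than counting error, and the Serpinb6b ratio of liver over lung was 2.08 when cells were weighted equally. Shares moved with depth. Without thinning Serpinb9 was found in 26.8% of liver, 4.31% of lung and 1.48% of lymph node cells, and Serpinb6b in 27.3%, 10.7% and 2.89%. At 2 or more counts the Serpinb9 shares were 3.78%, 0.0976%, 1.02% and 0.0669% in liver, lung, skin and lymph node, and those of Serpinb6b 5.10%, 0.537%, 0.462% and 0.134%. Another seed gave 1.66% for Serpinb9 in lung, and the 25th percentile depth 7.48% for Serpinb6b in lung.

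Differences in share between cells with and without granzyme moved beyond counting error in 10 of 56 alternative values. Without thinning they were, in percentage points, 20.9 for Serpinb9 by Gzmb, 14.5 for Serpinb9 by Gzma and 20.8 for Serpinb6b by Gzma in liver, and 3.43, 8.73 and 7.63 for Serpinb9 by Gzmb, Serpinb6b by Gzmb and Serpinb6b by Gzma in lung. At the 25th percentile depth they were 15.5 for Serpinb9 by Gzmb in liver, and 2.24, 4.23 and -0.999 for those pairs in lung, the last of opposite sign to its main 3.13. Serpinb9 by Gzma in lung also turned there (-0.094, main 1.19). Serpinb6b by Gzmb in liver (main -1.37) was 3.09 without thinning, 2.46 with another seed, 3.50 when a granzyme-positive cell had 2 or more counts and 1.82 when granzymes were left out of the depth. That last setting gave 11.3 for Serpinb9 by Gzmb in liver (main 5.84) and 1.41 in lung (main 0.61). Without cycling cells, an alternative chosen after seeing the data, Gzma counts per Serpinb6b count were 71.6 in liver. Counts of genes at least 2-fold apart fell with a minimum of 100 summed counts to 171 (liver over lymph node), 214 (lung over lymph node), 304 (skin over lymph node), 74 (liver over lung), 187 (liver over skin), 373 (lung over skin, higher) and 776 (lower), against 349, 324, 501, 227, 432, 575 and 1417. With no minimum, 373 were higher in liver than in lung, and with size factors 693, 582 and 689 were higher in liver and lung over lymph node and liver over skin. Size factors moved the median of all genes by 0.43 (log2) for liver, 0.40 for lung and 0.20 for skin over lymph node, by 0.24 and 0.21 for liver and lung over skin, and by 0.03 for liver over lung. With size factors liver over lymph node was 27.7 for Serpinb9 and 16.4 for Serpinb6b. The causes were not tested.

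No paired analysis was possible because the columns carry no lane number, and for the same reason leaving out replicates was not run. Between 25 and 328 counts per tissue stand behind each serpin level, which limits what can be told apart within lung and lymph node.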
